A study of Homo sapiens with 2 samples.

Results

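The NF-κB subunits and the genes that feed back on them were examined in MRC-5 cells after knockdown of periostin. The 10 genes were fixed by name, with earlier results of these data known. They comprised the 5 subunits of the transcription factor (RELA, RELB, REL, NFKB1 and NFKB2), the inhibitors NFKBIA and NFKBIE, the regulators TNFAIP3 and BIRC3, and the kinase IKBKE. All 10 were found among the 21743 genes that could be named on the array, and they were measured by 11 probes on 38 of the 58717 spots. MRC-5 is an established line of fibroblasts from human fetal lung, and periostin is a matricellular protein encoded by POSTN. The cells received either control siRNA or periostin siRNA, the latter at 10 nM for 48 h, and the RNA of each condition was hybridized to 1 single-colour Agilent array. Both arrays lay on 1 slide. With 1 array per condition no difference had a replicate check, none could be tested, and p-values are absent throughout.

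NF-κB is a family of transcription factors that bind DNA as dimers of the Rel proteins. In resting cells the dimers are held in the cytoplasm by IκB proteins, until a signal from cytokine or pattern recognition receptors makes the IκB kinase phosphorylate the IκB and mark it for degradation. Several genes that the dimers switch on encode brakes on the same pathway, above all NFKBIA and TNFAIP3, and the messages of such genes are used as a readout of NF-κB activity. In fibroblasts the pathway is known for driving chemokines, interleukin 6 and adhesion molecules. RelA dimers serve the fast canonical branch, whereas RelB with the processed product of NFKB2 serves the slower non-canonical branch.

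Promoter sequences of the members are shown first, because several of these genes are textbook targets of the factor they belong to. Windows of 300 bases, from 250 before to 50 after each annotated start, were taken from RefSeq on GRCh38.p14, which is not the build of the array design. They were present for 8 of the 10 members, as 12 windows in all, and those of RELB and NFKBIE were not used here. The κB letters searched on both strands were GGG, then any 3 bases, then TTCC, and they were found in 7 of the 12 windows, belonging to 6 genes. Of all 35116 windows in the same table, 6.52% held these letters. The stretches around the matches are printed 5′ to 3′ on the strand of the gene, with the matching letters in capitals, and for NFKBIA the whole 250 bases before the start are given.
NFKBIA, chr14:35404750-35404999, minus strand: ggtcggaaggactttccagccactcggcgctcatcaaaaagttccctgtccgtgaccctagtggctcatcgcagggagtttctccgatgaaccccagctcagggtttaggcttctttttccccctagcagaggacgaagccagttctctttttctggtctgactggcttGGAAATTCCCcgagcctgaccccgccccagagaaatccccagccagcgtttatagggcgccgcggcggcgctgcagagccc
TNFAIP3, chr6:137867172-137867233, plus strand: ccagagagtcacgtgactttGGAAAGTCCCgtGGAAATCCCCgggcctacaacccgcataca
BIRC3, chr11:102317265-102317314, plus strand: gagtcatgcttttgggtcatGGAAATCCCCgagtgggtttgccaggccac
REL, chr2:60881507-60881557, plus strand: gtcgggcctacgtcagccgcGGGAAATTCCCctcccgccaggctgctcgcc
NFKB1, start 1, chr4:102501290-102501339, plus strand: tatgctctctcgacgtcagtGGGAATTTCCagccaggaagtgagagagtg
NFKB2, start 2, chr10:102394452-102394529, plus strand: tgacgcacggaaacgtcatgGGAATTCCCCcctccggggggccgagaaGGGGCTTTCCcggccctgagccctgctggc
NFKB2, start 3, chr10:102395664-102395704, plus strand: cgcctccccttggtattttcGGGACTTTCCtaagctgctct
The match of NFKBIA, which encodes IκBα, began at position -81 from the start. TNFAIP3 held 2 matches, beginning at -67 and -55, and BIRC3 held 1, beginning at -199. In REL a pair of matches on opposite strands overlapped in all but 1 base at each end. NFKB1 had 2 starts and NFKB2 had 3, and the matches lay at start 1 of NFKB1 and at starts 2 and 3 of NFKB2. Neither of the 2 windows of RELA nor the window of IKBKE held the letters. Letters of the interferon-stimulated response element (ISRE), GAAA, any 2 bases and GAAA again, were also searched on both strands. They occurred in 3.57% of all windows and in 1 window of the members, the first of RELA. A match is a description of the letters and was not tested for binding.

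**Figure D1:**
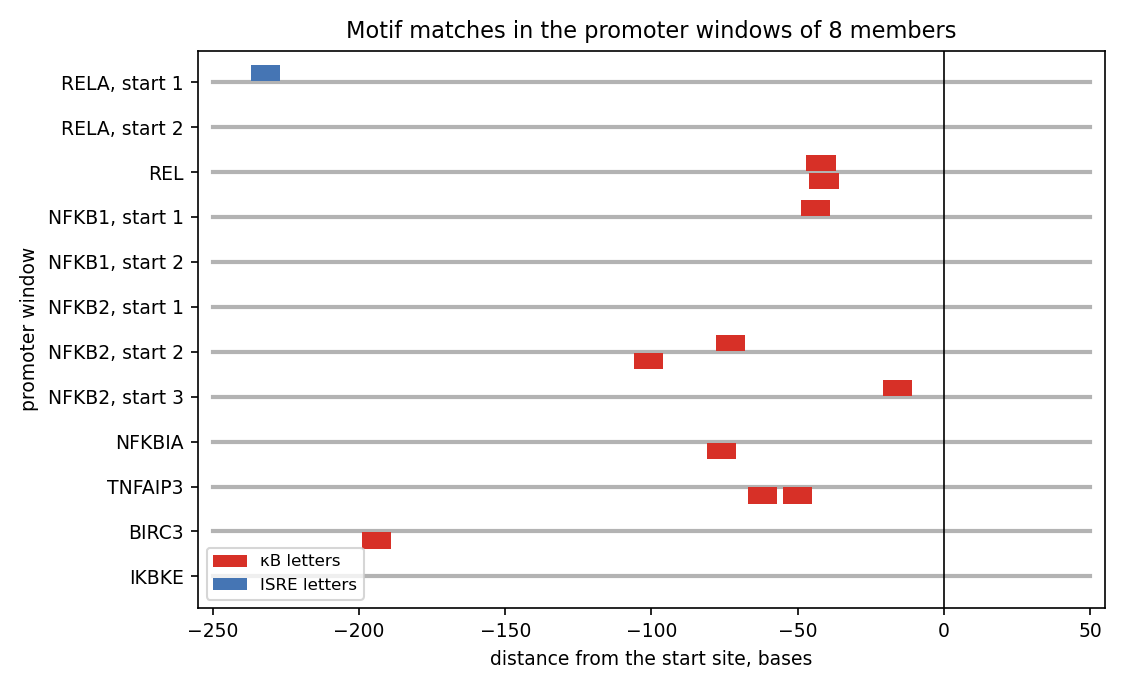
Position of the κB letters (red) and ISRE letters (blue) in the 12 promoter windows of 8 members, in bases from the annotated start at 0. Blocks above a line match the strand of the gene and blocks below it the opposite strand; 7 windows carry κB letters, all upstream of the start, and none of the windows of RELA or IKBKE does.

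The siRNA target was checked first. POSTN went from a scaled signal of 2638 in control cells to 280 in knockdown cells, which is -3.24 on the log2 scale (propagated error 0.20). The signal is the background-subtracted brightness of a probe, scaled so that the 75th percentile of both arrays was 377, and it has no absolute unit. All ratios are periostin siRNA over control siRNA. A ratio was available for 16052 genes, with a median log2 ratio of 0.06. Of these genes, 3.37% were higher and 2.75% were lower by more than 3-fold, the threshold of the study, and 7.97% were higher and 6.42% lower by more than 2-fold. Among the 4823 genes with a mean signal under 100 these shares were 7.24% and 4.48% at 3-fold, and 14.6% and 9% at 2-fold. Among the 11229 brighter genes they were 1.71% and 2%, and 5.11% and 5.32%. The fibroblast markers were bright on both arrays, with 9 of 9 measured and within 2-fold, at summed signals of 353496 and 319663. Markers of other cells were summed over 7 immune genes to 1929 with control siRNA and 3111 with periostin siRNA, over 6 epithelial genes to 226 and 355, and over 5 endothelial genes to 5614 and 5333. Most of these markers were detected, with a ratio for 5, 4 and 4 of them, and the brightest were CD68 (1528 and 2451), CD14 (287 and 549) and TEK (5457 and 5175). PTPRC, CORO1A, EPCAM, CLDN4, SFTPC, SCGB1A1, CDH5, CLDN5 and VWF were also well above background on both arrays, at signals from 17.6 to 135. For PTPRC this held for its brightest probe alone, and its other probes were well above background on neither array. CD74 was well above background on the knockdown array alone. HLA-DRA, LAPTM5, CDH1, KRT5 and PECAM1 were not well above background on either array. EPCAM was the only marker past 2-fold, with a signal of 34.6 and 135, and the part of these markers in the results below was not tested. In RNA from whole cultures, fewer cells of one kind and less RNA per cell cannot be told apart.

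Of the 10 members, 9 were higher with periostin siRNA and RELA was the exception. Of the 16052 measured genes, 8745 had a log2 ratio above 0 and 7307 below it. The 3 members higher by more than 3-fold were BIRC3, RELB and TNFAIP3, and NFKBIA, NFKBIE and REL brought the number past 2-fold to 6. Of all measured genes, 3.37% were higher by more than 3-fold and 7.97% by more than 2-fold. Among genes of mean signal under 100, where BIRC3, TNFAIP3 and REL lie, these shares were 7.24% and 14.6%. The number of members past 2-fold was 3 (RELB, NFKBIA and NFKBIE) under the normexp correction described with REL, and from 5 to 7 in the other ways of processing tried. The share of all genes past 2-fold was not taken under those ways, so these counts cannot be set against 7.97%. At 3-fold the share of all genes was 0.892% under the normexp correction. In the processing as reported, no member was lower by more than 2-fold, beside 6.42% of all measured genes. The median log2 ratio of the members was 1.13, beside 0.06 over all measured genes, and it was 1.06 over the 9 members well above background on both arrays. No member carried an outlier flag on either array, and no spot was saturated.

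**Figure D2:**
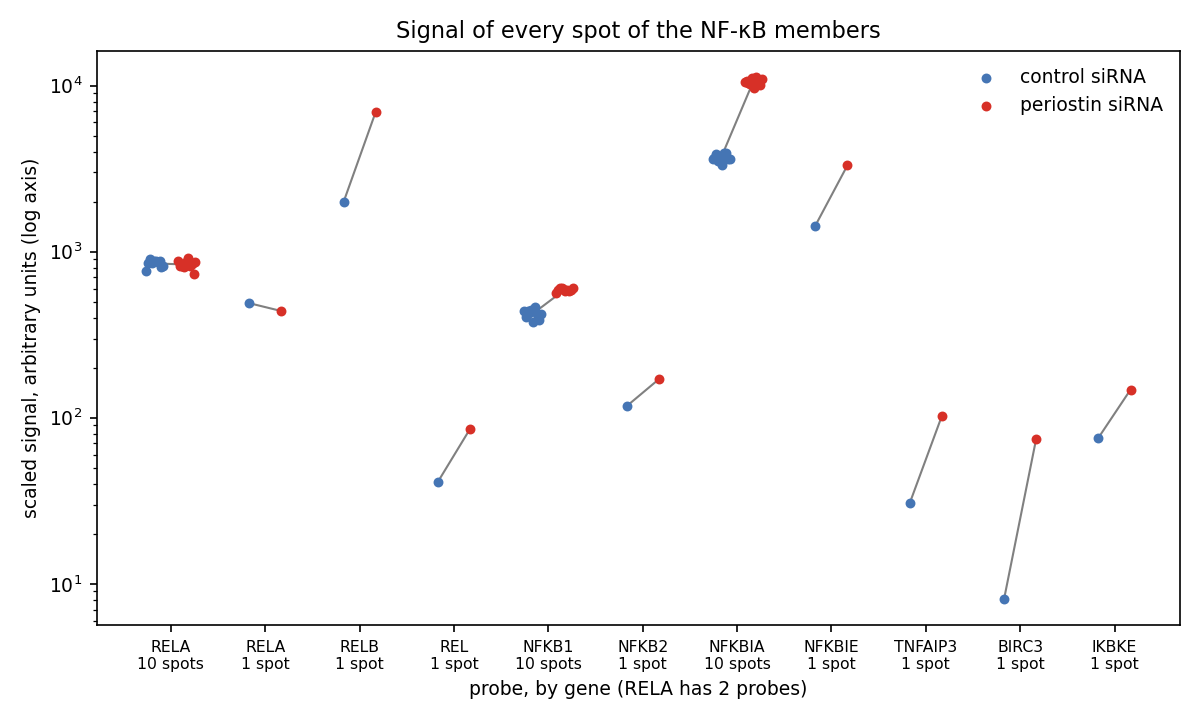
Scaled signal of each of the 38 spots of the members on a log axis, with control siRNA in blue and periostin siRNA in red. Lines join the mean of each probe. RELA, from 850 to 836, is flat, whereas the 10 spots of NFKBIA lie in separate ranges on the 2 arrays.

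RELA encodes p65, the transactivating subunit of the canonical dimer, and was measured by 2 probes. The probe printed 10 times ranged from 770 to 904 with control siRNA (median 861) and from 735 to 912 with periostin siRNA (median 833), so the ranges overlapped. Its log2 ratio was -0.02 ± 0.11 (SD over 10 spots). The second probe, a single spot, had signals of 490 and 439 and a log2 ratio of -0.16 with a propagated error of 0.20. Both ratios lay within their own error of 0, and the first took a positive sign, 0.02, without scaling between the arrays.

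RELB, the subunit of the non-canonical branch and itself a target of NF-κB, had the highest ratio of the subunits. Its single spot gave 1994 on the control array and 6941 on the knockdown array. The signal was thus 3.48-fold higher, 1.80 on the log2 scale (propagated error 0.20), and 2.46% of the measured genes had a ratio at least as high. RELB was therefore past the threshold at a signal where 1.71% of the genes were.

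REL encodes c-Rel, a subunit best known from lymphocytes. Its single spot was dim, at 41.2 in the control and 85.7 after knockdown, and the log2 ratio was 1.06 (propagated error 0.21). It was 0.52 under the normexp correction, a model of background and signal whose result is raised by 50 on each array, which by itself lowers the ratio of a dim probe.

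NFKB1 and NFKB2 encode the precursors p105 and p100, which act as inhibitors until they are processed into the subunits p50 and p52. The 10 spots of NFKB1 ranged from 377 to 462 with control siRNA (median 424) and from 564 to 605 with periostin siRNA (median 588), and the ranges did not overlap. The log2 ratio was 0.48 ± 0.10 (SD over 10 spots), a 1.40-fold higher signal that 21.7% of all measured genes reached. NFKB2, from 1 spot, had signals of 117 and 170 and a log2 ratio of 0.54 with a propagated error of 0.21. The ratios of NFKB1 and NFKB2 differed by less than these errors and were below 2-fold.

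NFKBIA, whose product IκBα binds the dimers and returns them to the cytoplasm, had the smallest SD over spots of the members printed 10 times. Its 10 spots ranged from 3339 to 3932 with control siRNA (median 3656) and from 9656 to 11296 with periostin siRNA (median 10549). No spot of one array reached the range of the other. The signal was 2.86-fold higher, with a log2 ratio of 1.52 ± 0.05 (SD over 10 spots), just under the 3-fold threshold, and 3.78% of the genes had a ratio as high. NFKBIE encodes IκBε, a related inhibitor that is induced later. On a single spot its signal was 1437 and 3314, and the log2 ratio was 1.21 (propagated error 0.20). The spot errors separate the ratio of NFKBIA from 0 for these arrays, but do not cover the difference between cultures.

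TNFAIP3 encodes A20, a ubiquitin-editing enzyme that shuts off signalling upstream of the IκB kinase. Its spot gave 30.6 in the control and 102 after knockdown. The signal was 3.34-fold higher, 1.74 on the log2 scale (propagated error 0.22). At 3-fold, 7.24% of the genes of mean signal under 100 were higher, so that such a ratio was more frequent at this brightness than among bright genes. The normexp correction gave 0.86.

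BIRC3 encodes cIAP2, a ubiquitin ligase of the TNF receptor complex that is induced by NF-κB. Its spot was well above background with periostin siRNA alone. The signal was 8.12 with control siRNA, not well above background, and 74.7 with periostin siRNA. The dim signal itself served as the reference, since the floor of detection on the control array was lower, at 7.55. Against this dim signal BIRC3 was 9.20-fold higher, a log2 ratio of 3.20 (propagated error 0.40). With a control signal so near the floor, the ratio is imprecise in both directions. A ratio as high was reached by 0.299% of the measured genes. The normexp correction gave a log2 ratio of 0.89. BIRC2, its neighbour in the gene family, went the other way, with signals of 2452 and 1394 and a log2 ratio of -0.81.

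IKBKE encodes IKKε, an IκB kinase-related enzyme that acts in the interferon as well as the NF-κB response. Its single spot gave 75.8 in the control and 148 after knockdown. The signal was 1.95-fold higher, with a log2 ratio of 0.96 and a propagated error of 0.21, so that the 2-fold line lay within the error. A ratio this high was reached by 8.51% of the genes.

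**Figure D3:**
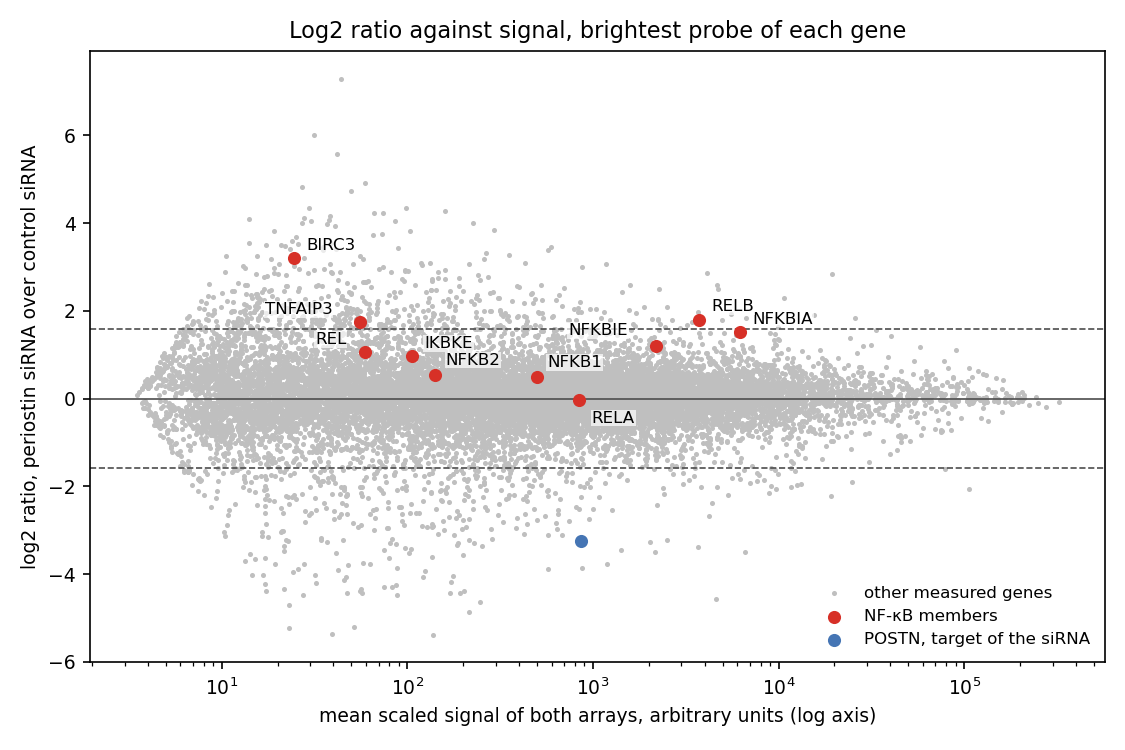
Log2 ratio of periostin siRNA over control siRNA (vertical axis) against mean scaled signal on a log axis for 16052 genes (grey), the 10 members (red) and POSTN (blue); dashed lines mark 3-fold. RELB and NFKBIA lie where few genes are as high, while BIRC3, TNFAIP3 and REL lie among dim genes with a wide spread. The control signal of BIRC3 was not well above background.

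The members thus did not share 1 ratio. On the log2 scale RELA was near 0, NFKB1 and NFKB2 were at 0.48 and 0.54, IKBKE and REL at 0.96 and 1.06, and NFKBIE, NFKBIA, TNFAIP3, RELB and BIRC3 followed from 1.21 upwards. Among the 8 members with a promoter window, the 6 with κB letters had log2 ratios from 0.48 (NFKB1) to 3.20 (BIRC3). The 2 without had -0.02 (RELA) and 0.96 (IKBKE), so the groups overlapped. Over the 12407 measured genes with a window, the shares were close to each other. The 1209 genes with κB letters had a median log2 ratio of 0.09 and 8.77% of them were higher by more than 2-fold, beside 0.05 and 7.41% of the 11198 genes without. For the ISRE letters the shares were 11.7% of 512 genes and 7.36% of 11895 genes. These are descriptions across genes, which are not replicates.

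A list of the kinases that release the dimers and their partner proteins held 10 genes, all measured. MAP3K14, which encodes the NF-κB-inducing kinase of the non-canonical branch, was the only one past 2-fold, or 1 of 10 beside 7.97% of all measured genes, with signals of 98.0 and 212 (log2 ratio 1.11, propagated error 0.21). TAB2, an adaptor of the upstream kinase TAK1, gave 0.20 by its brightest probe, and a second, dimmer probe gave -0.12. The genes of the core IκB kinase, the catalytic CHUK and IKBKB and the regulatory IKBKG, gave -0.16, -0.04 and 0.37. The median over the 10 genes was 0.12.

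Of the receptors and adaptors, 21 of 24 gave a ratio, with a median of 0.25 on the log2 scale. TLR3, a sensor of double-stranded RNA, was the only one past 2-fold and also past 3-fold. That is 1 of 21, beside 7.97% of all measured genes higher by more than 2-fold and 3.37% by more than 3-fold. Its signals were 80.0 and 302, with a log2 ratio of 1.92 and a propagated error of 0.21. None of the 21 was lower by more than 2-fold, beside 6.42% of all measured genes. The TWEAK receptor gene TNFRSF12A gave -0.90, from 15533 to 8341. TLR2, TLR4 and TNFRSF11A were not well above background on either array.

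Of the 9 ligand genes, TNF, LTA, TNFSF11 and CD40LG were not well above background on either array. IL1B, which encodes the cytokine interleukin 1β, was lower by more than 3-fold, with signals of 324 and 103 and a log2 ratio of -1.65 ± 0.10 (SD over 10 spots). TNFSF12, the gene of TWEAK, gave 0.14. The 5 ligands measured had a median log2 ratio of -0.29, and none was higher by more than 2-fold, beside 7.97% of all measured genes. IL1B was 1 of 5 lower by more than 3-fold, beside 2.75% of all measured genes.

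Of the other inhibitors and feedback genes, all 14 could be measured, 7 were above and 7 below 0, and the median was 0.05. Of all 16052 measured genes, 8745 were above and 7307 below 0. Past 2-fold, 1 of the 14 was higher and 1 lower, close to the 7.97% and 6.42% of all measured genes. BCL3, an atypical IκB that binds the p50 and p52 dimers, was higher, with signals of 4246 and 8600 and a log2 ratio of 1.02 with a propagated error of 0.20. CYLD, a deubiquitinase that restrains the pathway, was lower, at 82.1 and 36.8 with a log2 ratio of -1.16 and a propagated error of 0.22. Within 2-fold but above 0.5 were NFKBID (0.95), ZC3H12A (0.89), NFKBIZ (0.74) and TNIP1 (0.68), and TNIP3, well above background with control siRNA alone, was at most -0.95. No gene on this list was past 3-fold, beside 3.37% higher and 2.75% lower among all measured genes.

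Of 24 genes known as targets of NF-κB, 23 gave a ratio, and the median of these was 0.59 on the log2 scale. Higher by more than 3-fold were 7 of them (30.4%), beside 3.37% of all measured genes, and 1 was lower, beside 2.75%. Under the normexp correction 4 of them were higher by that much, beside 0.892% of all measured genes. The list was chosen with earlier results of these data known, so its share is a description and no independent support. The chemokine gene CXCL10 went from 56.3 to 899, 16.0-fold higher (propagated error of the log2 ratio 0.21), with a log2 ratio of 4.0, and a second probe gave 4.05. The adhesion molecule genes VCAM1 and ICAM1 had log2 ratios of 3.05 (propagated error 0.21), from 41.8 to 346, and 1.97 ± 0.10 (SD over 10 spots), from 257 to 1008. TRAF1, an adaptor that binds cIAP2, went from 23.8 to 150 with a log2 ratio of 2.66 (propagated error 0.24). CCL5, another chemokine gene, was well above background with periostin siRNA alone, with signals of 6.17 and 32.0, and was at least 4.24-fold higher. IL6 gave 1.86 (propagated error 0.21), from 92.1 to 335, while a second IL6 probe was not well above background on either array. TNFAIP2 gave 1.86 (propagated error 0.20), from 4489 to 16258. CXCL10 and CCL5 are known to respond to interferon as well as to NF-κB, and their part in the list was not tested.

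The target genes did not all go one way. CXCL2 was just past 2-fold by its brightest probe, at 1.01 (propagated error 0.22), but its second probe gave 0.29. TNFAIP6, which encodes a hyaluronan-binding protein of inflamed tissue, was lower by 9.73-fold, from 253 to 26.0, with a log2 ratio of -3.28 and a propagated error of 0.23. Below 0 were 8 of the 23 targets in all, beside 7307 of the 16052 measured genes. The remaining 14 targets lay within 2-fold.

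**Figure D4:**
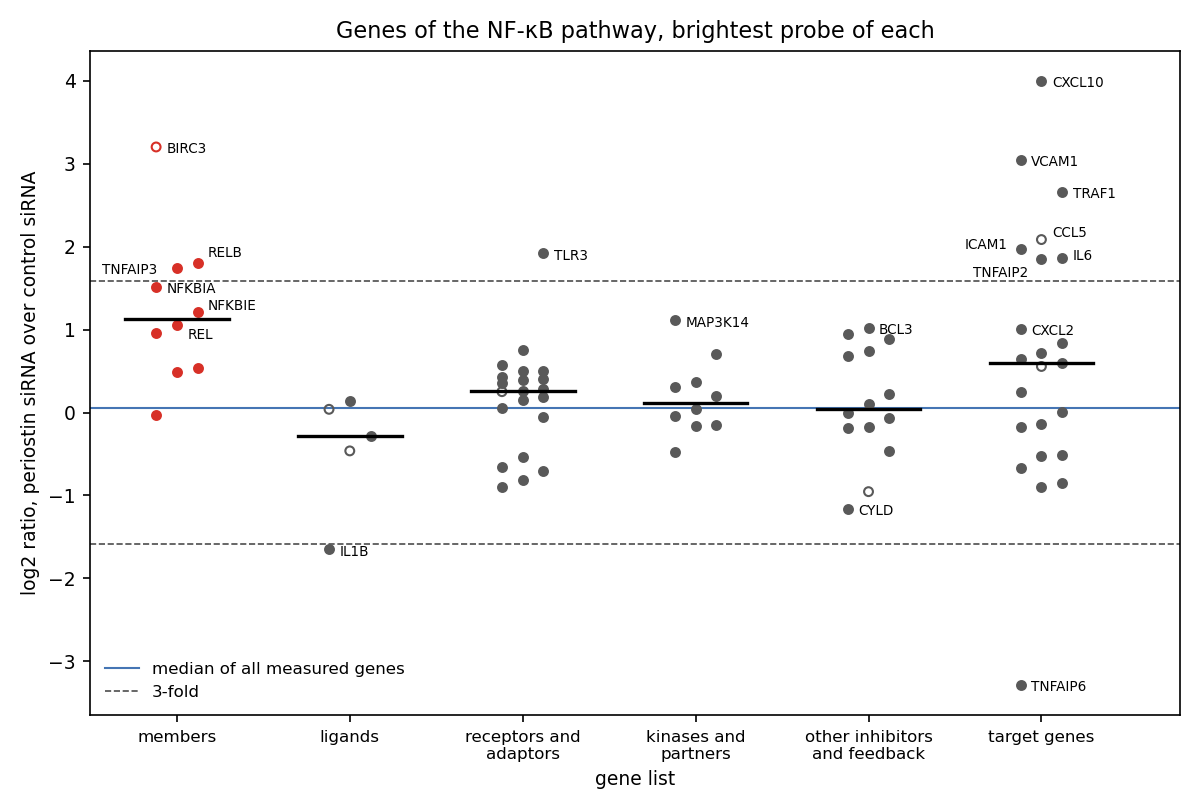
Log2 ratio of periostin siRNA over control siRNA for the members (red) and the genes of 5 pathway lists (grey), with genes past 2-fold named. Open points were well above background on 1 array alone, black bars are list medians, the blue line is the median of all measured genes (0.06) and dashed lines mark 3-fold; the medians are 1.13 for members and 0.59 for targets, and between -0.29 and 0.25 for the other lists.

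Over 9 alternatives the log2 ratio of NFKBIA ranged from 1.39 to 1.56, that of RELB from 1.67 to 1.84 and that of NFKBIE from 1.08 to 1.25. The ratios of dim probes ranged from 0.52 to 1.1 for REL and from 0.86 to 1.79 for TNFAIP3. Without the normexp correction the lower ends were 0.93 and 1.61. Apart from quantile normalization, the remaining alternatives shift every log2 ratio alike or leave these genes unchanged. They therefore cannot show how stable the dim probes are. Under the normexp correction, RELB was the only member past 3-fold, where 0.892% of the genes were higher by that much.

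**Figure D5:**
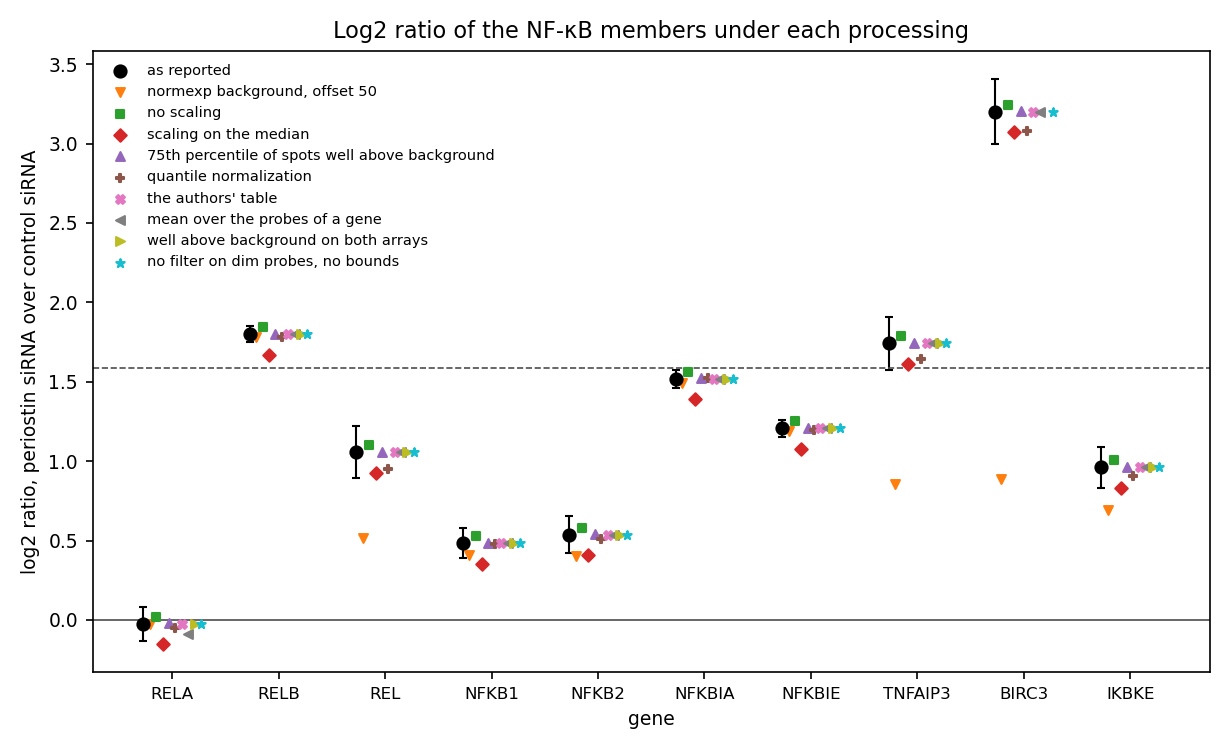
Log2 ratio of each member (horizontal axis) as reported (black, with the SD over its own 10 spots or, for single spots, the median SD of replicated probes of like signal) and under 9 other ways of processing; the dashed line marks 3-fold. RELB, NFKBIA and NFKBIE stay above 1 in each, and the normexp correction (orange triangles) lowers BIRC3, TNFAIP3 and REL most. The bars of single spots are narrower than the propagated errors given in the text, for RELB 0.05 against 0.20. The control signal of BIRC3 was not well above background.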

How the data were processed

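The study hybridized RNA of MRC-5 cells transfected with siRNA against periostin or with a control. Total RNA was labelled with Cy3 and put on SurePrint G3 Human GE 8x60K v2 arrays, 1 per condition. The authors deposited a scanner file for each array with intensity values per spot that Feature Extraction had background-subtracted and detrended, without scaling between arrays. Per the file headers the version was 11.5.1.1, whereas the submitters' processing notes name 12.0.3.1, and the array design is annotated on hg19. A second file that the authors deposited holds normalized intensities for both arrays and equals the scanner intensity times 1 factor per array (3.65 and 3.54) and was used as an alternative. Flags deposited by the authors' software marked 58.0% and 58.9% of the spots as well above background.

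Here, processed intensities were put on the log2 scale and centred on the array's own 75th percentile, taken over 58717 spots without the controls (372 with control siRNA, 383 with periostin siRNA). Repeated spots were averaged after the log, and a repeated probe was taken as well above background unless most of its spots lacked the flag. Spots were named through their RefSeq accession, which matched 65.1% of them. The brightest probe stood for a gene. A probe well above background on 1 array alone gave a ratio against its dim signal on the other. Where the lowest detected signal of that other array was higher, it was used instead, and the ratio is a bound. A gene dim on both arrays had no ratio. Errors are the SD over 10 spots or the error that the scanner software propagates, and cover neither culture nor labelling; the number of arrays limits the precision. The scaling and the gene values were tested on simulated data, in which the changed genes lay above the median control signal. The simulation did not cover probes well above background on 1 array alone. The members and lists were chosen with earlier results of these data known. All members were named, with the genes of each pathway list past 2-fold and, where under 2 passed, the brightest; CHUK, IKBKB, IKBKG, BIRC2, NFKBID, ZC3H12A, NFKBIZ, TNIP1, TNIP3, the cell type markers and the genes at background were named after their values were seen. Tools were Python 3.11.15, numpy 2.4.6, pandas 2.3.3 and scipy 1.17.1, and limma 3.58.1 in R 4.3.3.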

Additional observations from a re-analysis of the deposited data

How the results depend on the processing

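No paired analysis was possible because a single array stood for each condition, and none could be left out. POSTN kept its sign in all 9 alternatives, with log2 ratios from -3.37 to -2.99, and the member and target medians stayed above 0. The normexp correction (offset 50, applied to median pixel values) gave -2.99 for POSTN, medians of 0.78 for the members and 0.36 for the targets, with 1 member higher by more than 3-fold and 3 by more than 2-fold; its offset pulls dim probes towards 0 by construction. It left 143 higher and 190 lower genes past 3-fold in place of 541 and 441, so that higher genes were 42.9% of the calls in place of 55.1%. Scaling on the median, which shifted the median of all genes by -0.13, gave -3.37 for POSTN, 1.0 for the members and 0.46 for the targets. At 2-fold, 6 members, 1279 higher and 1031 lower genes were past the threshold. Without the filter on dim probes 878 genes were higher and 686 lower by more than 3-fold. The other alternatives (no scaling, scaling on spots well above background, quantile normalization, the deposited table, the mean over probes, and a filter on dim probes) moved the medians by less than the SD between replicate spots, 0.12, and counts by at most 1.5 times, with 2 members past 3-fold under the filter. Past 2-fold were 7 members without scaling, and 5 with median scaling, quantile normalization or the filter. The share of all genes past 2-fold was not taken under these alternatives. RELA changed sign without scaling (0.02), and BIRC3 had no value with the filter.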
